A study of Mus musculus with 4 samples.

Results

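The control F9 cells of this series were described by themselves: 2 of the 4 arrays, both labelled shVector, and the 45037 probe sets of each array that are not Affymetrix controls, out of 45101. F9 is a mouse embryonal carcinoma line, the malignant stem cell of a teratocarcinoma. Both hold total RNA of F9 cells that took up the lentiviral control vector pLKO.1 and were then kept in puromycin to give stable lines. The remaining 2 arrays, of cells with a hairpin against Phf19, were not used. The controls are therefore vector-bearing, drug-selected cells and not uninfected F9 cells. The labels call the arrays biological replicates without saying whether they came from separate infections, so every difference between replicates below is that of these 2 arrays, which may be technical.

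Each probe set carries 1 value per array, taken as log2 fluorescence as the authors deposited it, and the mean of both arrays was used. A mean of 10 or more was called bright, a mean under 5 near background, and anything between middle. A gene was represented by its brightest probe set among those listed with that gene alone, which gave 18193 genes. Brightness depends on how well each set of probes binds as well as on the amount of RNA, so an order of genes by level is one of their probe sets and not of their RNA, and a low value does not show that a gene is silent. No groups were compared and no test was made.

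Embryonal carcinoma cells share with embryonic stem cells a transcription factor circuit centred on Oct4 (encoded by Pou5f1), Sox2 and Nanog, which keeps differentiation genes off and self-renewal genes on. F9 cells divide quickly, form few differentiated cells on their own, and can turn into parietal or visceral endoderm under culture conditions that include retinoic acid. Genes for later lineages are held in check in such cells, many of them by Polycomb complexes, while the machinery of growth and DNA replication runs at a high rate.

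All 5 genes chosen as marks of the cell type were bright on both arrays. Pou5f1 read 13.82 on replicate 1 and 13.79 on replicate 2, Sox2 13.11 and 13.18, and Nanog 12.98 and 13.09. The RNA-binding protein gene Lin28a read 10.33 and 10.54 with its brighter probe set, and 6.40 and 6.63 with its other one. Dppa5a, which encodes a KH-domain protein of pluripotent cells, read 14.28 and 14.29 and was among the 20 genes with the highest means. These genes are shared with embryonic stem cells and were chosen with earlier results known, so their levels describe the cells and do not tell the 2 cell types apart.

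Over all genes, 3350 of 18193 (18.4%) were bright, 9625 (52.9%) were middle and 5218 (28.7%) were near background. Over probe sets the counts were 5157 (11.5%), 22411 (49.8%) and 17469 (38.8%). The levels had 2 humps. Bins of 1 log2 unit held 2591 genes from 4 to under 5, fell to 1652 from 7 to under 8, and rose again to 2000 from 9 to under 10. The middle class therefore took in the upper flank of the dim hump and much of the brighter one. A ruler for the bottom of the scale came from the array's 3 control probe sets for a bacterial trp sequence, which averaged 3.28 and 3.27 on the 2 arrays.

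**Figure D1:**
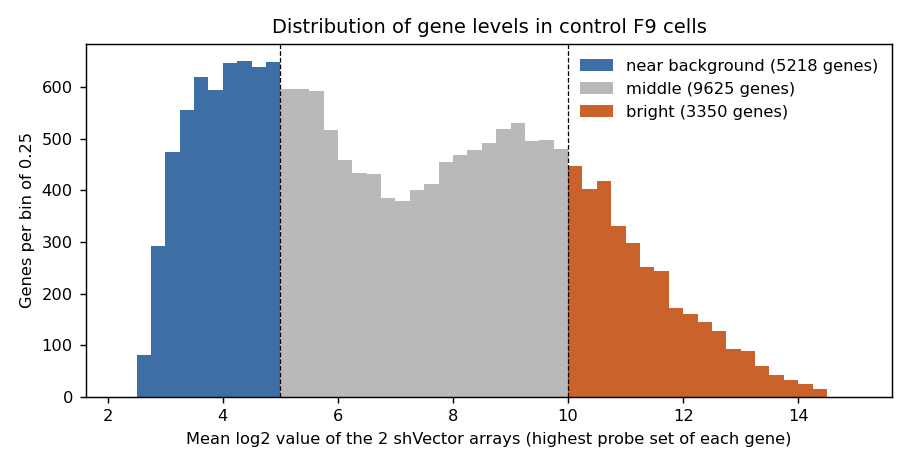
Number of genes (vertical axis) per bin of 0.25 log2 units of the mean of the 2 shVector arrays (horizontal axis), each gene given by its brightest probe set, with dashed lines at 5 and 10. The 5218 near-background genes make up the left side of the first hump, which runs on past 5, and a second, lower hump lies around 9, just below the 3350 bright genes.

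The thresholds cut through a continuous scale. Just inside the bright class were Ntan1 (mean 10.0007), Prpf3 (10.0014) and Yes1 (10.0015), and just outside it Acbd5 (9.9994), Nomo1 (9.9981) and Pwwp3a (9.9980). At the lower threshold Foxq1 (5.0006), Cyp2u1 (5.0010) and Myo5b (5.0025) were middle, while Angpt4 (4.9999), Cyp2c70 (4.9999) and 2200002J24Rik (4.9993) were near background. These genes lay on either side by less than the arrays differed.

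The arrays agreed closely. Their values correlated across the 45037 probe sets at a Pearson's r of 0.9974, probe sets not being independent replicates, and the difference between arrays had an SD of 0.192. Both arrays put 43595 probe sets (96.8%) in the same class, and none went from bright on one to near background on the other. The difference reached 0.5 in 753 probe sets (1.67%) and 1 in 11, of which 10 were higher on replicate 2. Its SD was widest for means from 6 to under 8 (0.211) and shrank to 0.142 from 11 to under 12 and to 0.0338 at 14 and above.

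**Figure D2:**
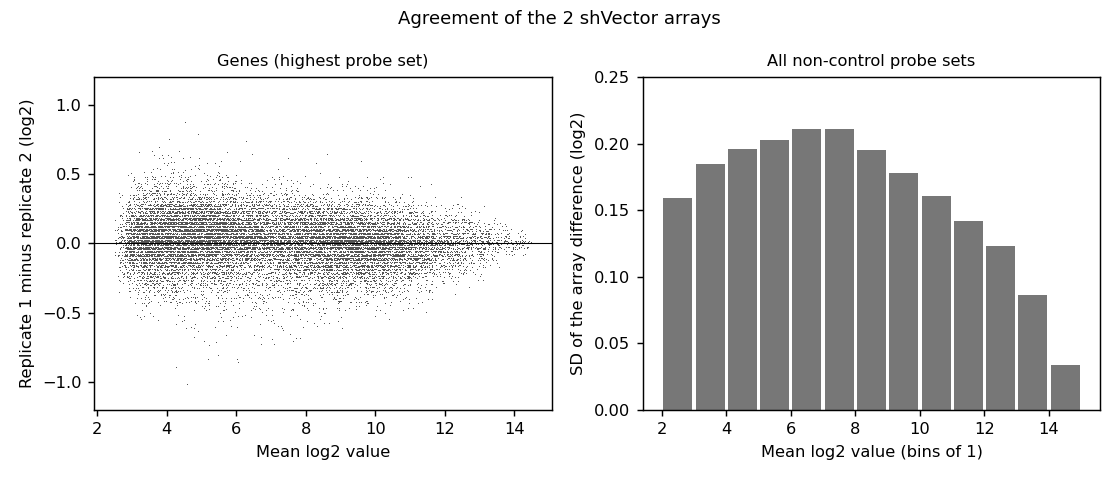
Left, the value on replicate 1 minus that on replicate 2 (log2) against the mean for each of 18193 genes. Right, the SD of that difference over non-control probe sets in bins of 1 log2 unit, which was 0.211 from 6 to under 8 and 0.0338 at 14 and above.

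Array quality controls did differ between the pair. The 24 control probe sets for polyadenylated spike-in RNA averaged 8.42 on replicate 1 and 7.94 on replicate 2, whereas the 18 hybridisation controls averaged 10.12 and 9.99. The 3' probe set exceeded the 5' probe set of beta-actin by 1.16 and 0.83, and that of Gapdh by 0.51 and 0.26. Among genes with a mean of 7 or more, the largest gaps toward replicate 1 were those of Nsmf (8.92 and 8.28), Ebf1 (7.78 and 7.18), Pltp (9.88 and 9.29) and the stress-response factor gene Ddit3 (8.59 and 8.02). Plekhh3, Msi1, Lrrc31 and Igf1r followed at gaps of 0.48 to 0.53. Toward replicate 2 they were A630072M18Rik (6.72 and 7.45), Khdc3 of the oocyte subcortical complex (7.28 and 7.99), Pacc1 (6.69 and 7.38) and Nap1l2 (7.51 and 8.20). Gin1, Ccdc85a, the activin antagonist gene Fst and Rpf1 followed, with replicate 1 minus replicate 2 at -0.69 to -0.62. Whether RNA quality had a part in these gaps was not tested.

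Of the 20 genes with the highest means, 13 encode ribosomal proteins, among them Rplp2 (14.48 and 14.49), Rps29 (14.41 and 14.40) and Rps28 (14.39 and 14.41). The translation elongation factor gene Eef1a1 (14.40 on both arrays), Tpt1, the chaperone gene Hspa8 (14.28 and 14.35), the nucleolar protein gene Npm1 (14.22 and 14.30) and Dppa5a were also there. Pabpn1, of nuclear polyadenylation, and Bex1 belonged to none of the 33 gene lists used below. The other ribosomal members were Rps20, Rps4x, Rpl7a, Rpl37a, Rpsa, Rpl4, Rps18, Rpl35, Rpl41 and Rpl22, at means from 14.22 to 14.38. Widening to the 100 highest brought in 35 ribosomal protein genes, 10 translation factor genes, 6 of oxidative phosphorylation and 29 genes of no list.

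The 33 lists name 992 genes, of which 890 were measured and 102 were not analysed here, lacking a probe set of their own. Of the 890, 421 were bright (47.3%, against 18.4% of all genes), 320 middle and 149 near background (16.7%, against 28.7%). In 871 the class was the same on both arrays.

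**Figure D3:**
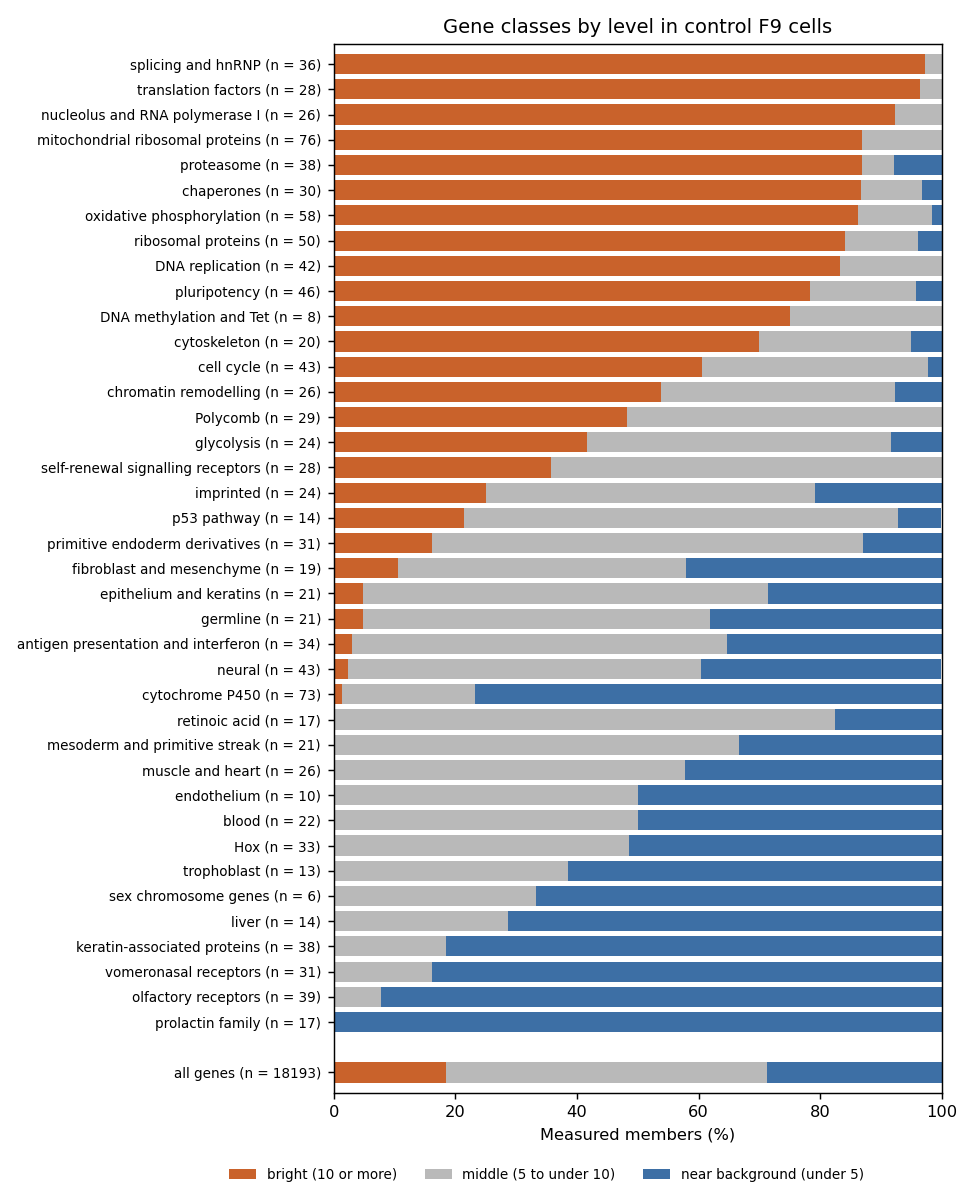
Share of measured members (horizontal axis, percent) that were bright, middle or near background for 33 gene lists and 6 families picked by symbol, with all genes at the bottom and the number of members in parentheses. Growth and pluripotency lists sit at the top, with 97.2% of splicing and hnRNP genes and 78.3% of pluripotency genes bright, and the lists of other tissues below, against 18.4% bright among all genes.

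Pluripotency genes were bright in 36 of 46 measured cases (78.3%, against 18.4% of all genes), with a median level of 11.33 against 6.91 for all genes. Of the 19 transcription factors, 16 were bright. Besides the core trio they included Klf5 (13.02 and 12.87), Zfp42, the Rex1 gene of naive pluripotent cells (12.77 and 13.00), Esrrb, an orphan nuclear receptor of the same state (12.45 on both), and Nr0b1 at a mean of 12.28. Those not bright were Zscan10 (mean 9.49), Prdm14 (9.47) and Foxd3 (8.33), each middle. The order within these factors carries no meaning across probe sets, but none was near background.

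Of 11 RNA-binding and developmental pluripotency genes, 9 were bright. They included L1td1 (13.73 and 13.81), Tcl1, a co-activator of Akt (12.70 on both), Eras, an embryonic Ras (12.62 and 12.65), and Trim71, a let-7 target (12.17 and 12.23). Dppa3, the Stella gene of the germ line and the naive state, was middle at 6.26 and 6.30. Lin28b, the paralog of Lin28a, was near background at 3.20 and 2.99. Both arrays thus placed the 2 Lin28 paralogs in opposite classes, each through a different probe set.

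Signalling genes of pluripotent cells, a role that holds ligands, their antagonists, a co-receptor and the intracellular inhibitor Spry4 (11.14 and 11.07), were bright in 8 of 9 cases. Tdgf1, the Nodal co-receptor Cripto, read 13.06 and 13.08, Bmp4 11.94 and 11.98, and Gdf3 11.55 and 11.73. Nodal, at a mean of 10.99, was bright alongside its antagonists Lefty1 (11.56 and 11.29) and Lefty2 (10.82 and 10.53), and Fgf4, the autocrine FGF ligand, had a mean of 10.37. Other probe sets of these bright genes were often lower. Those of Fgf4 had means of 10.32, 6.67 and 4.52, and those of Spry4 7.96, 7.21 and 5.55. The other one of Gdf3 had a mean of 9.45 and that of Nodal 7.98. Fgf5, which marks the primed epiblast, was near background (4.79 and 4.67), as was its other probe set at a mean of 4.01. Of 7 cell surface genes, Cd9 (mean 12.98), the E-cadherin gene Cdh1 (12.05) and Epcam (11.08) were bright. Jam2 (9.73), Podxl (8.10), the alkaline phosphatase gene Alpl (8.09 and 7.91) and Pecam1 (5.68) were middle.

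**Figure D4:**
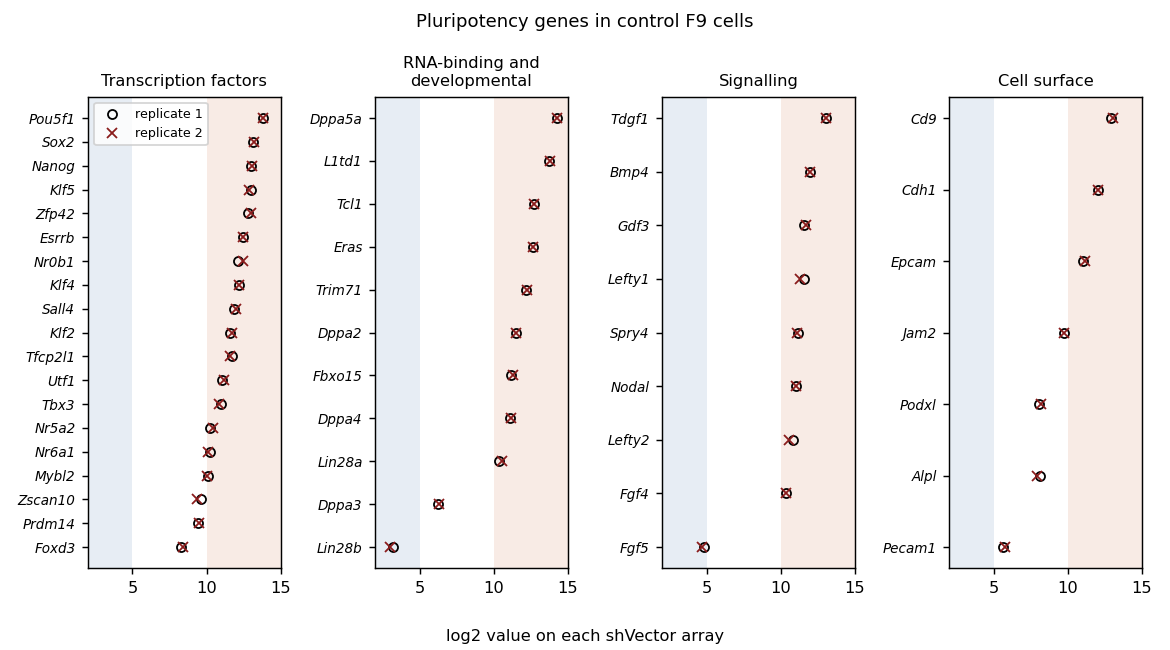
The log2 value on each shVector array (horizontal axis; circles for replicate 1, crosses for replicate 2) for 46 pluripotency genes in 4 roles, with the bright zone shaded on the right and the near-background zone on the left of each panel. The symbols of the 2 arrays nearly coincide, and Lin28b and Fgf5 are the only members in the near-background zone.

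Receptors and transducers of self-renewal signals were mostly middle, with 10 of 28 bright (35.7%, against 18.4% of all genes) and none near background. On the median over probe sets 3 were bright (10.7%), near the 10.2% of all genes. On the LIF axis, Lifr (mean 10.94), Il6st and the feedback inhibitor gene Socs3 were bright and Jak1 and Stat3 were middle, both with a mean of 9.69. None of the 4 FGF receptors was bright, with Fgfr1 at 9.41 and 9.35 and Fgfr4 at 5.73 and 5.66. Smad4, the shared Smad, was bright (mean 11.53), as were Smad1, Bmpr1a and Acvr1b. In the Wnt axis the beta-catenin gene Ctnnb1 (13.33 and 13.45), Apc and Fzd7 were bright, whereas the feedback target Axin2 (mean 6.96) and Lef1 (6.74) were middle. Lrp5 was middle at a mean of 5.48.

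DNA methylation genes were bright in 6 of 8 cases. Uhrf1 (mean 12.50), Dnmt3b (12.33 and 12.30), the maintenance methyltransferase gene Dnmt1 (mean 11.85) and the cofactor gene Dnmt3l (10.38 and 10.63) were bright, and Dnmt3a was middle (9.53 and 9.16). Of the enzymes that oxidise methylcytosine, Tet1 (12.34 and 12.51) and Tet2 (11.34 and 11.37) were bright, while Tet3 was middle at 5.41 and 5.22.

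Polycomb subunits, which place and read repressive histone marks, were bright in 14 of 29 cases and near background in none. In PRC2, the complex that methylates lysine 27 of histone H3, 8 of 12 were bright, including Ezh2 (mean 11.45), Suz12 (11.84), Eed (11.76), Rbbp7 (13.72) and Jarid2 (12.87 and 12.76). The Polycomb-like genes split, with Mtf2 bright (12.08 and 12.21) and Phf1 (6.74 and 6.71) and Phf19 (6.32 and 6.11) middle. In PRC1, 6 of 17 were bright, among them Phc1 (mean 12.48), Rnf2 (11.88), Pcgf6 (11.09) and Cbx7 (10.69), and Ring1 (6.96), Cbx8 (5.71) and Pcgf1 (5.11) were middle. Chromatin remodellers were bright in 14 of 26 cases (53.8%, against 48.3% of Polycomb genes and 18.4% of all genes). With the median over probe sets 4 remodellers (15.4%) and 7 Polycomb genes (24.1%) were bright, against 10.2% of all genes. With the lowest probe set 1 remodeller (3.85%) and 5 Polycomb genes (17.2%) were, against 7.37% of all genes. Within the BAF complex the ATPase gene Smarca4 (11.23 and 11.09), Smarcc1 (11.83 and 11.60) and Actl6a (11.68 and 11.81) were bright. Their alternative partners Smarcc2 (7.45 and 7.05), Smarca2 (4.50 and 4.56) and the neuronal Actl6b (3.97 and 3.92) were middle, near background and near background.

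Most genes for making proteins and for splicing were bright, against 18.4% of all genes. Translation factors were bright in 27 of 28 cases (96.4%), splicing and hnRNP genes in 35 of 36 (97.2%) and nucleolar genes in 24 of 26 (92.3%). All 21 initiation factors measured were bright, with means from 11.35 for Eif1a to 13.98 for Pabpc1. The exception in each of the first 2 lists was a tissue-restricted paralog. Eef1a2, the elongation factor of muscle and neurons (7.32 and 7.49), and Ptbp2, the neural polypyrimidine tract-binding protein (9.60 and 9.86), were middle. Polr1e (mean 9.39) and Polr1a (8.94), subunits of RNA polymerase I, were also middle. Of mitochondrial ribosomal protein genes, 66 of 76 were bright and none was near background.

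Ribosomal protein genes were bright in 42 of 50 measured cases (84.0%, against 18.4% of all genes), with a median of 14.02. Another 110 probe sets were listed with a ribosomal protein gene together with other genes, and 90 of these were bright. The exceptions bear on what a low value means. Rps16, a subunit of every ribosome, has 1 single-gene probe set, which read 3.32 and 3.17, at the level of the trp controls. Rps6 (8.97 on both arrays), Rpl39 (6.95 and 6.90), Rps27 (7.52 and 7.51) and Rpl27a (7.81 and 7.61) were middle, as were Rpl12 and Rpl39l. A probe set near background can thus belong to a gene that growing cells need. Rpl3l, the paralog of striated muscle, was near background at a mean of 4.48. With the suffixed probe sets (_s_at, _x_at and _a_at) left out, 26 ribosomal protein genes remained and 11 were bright (42.3%, against 14.2% of all genes). The count of 42 thus rests mainly on probe sets that can match several transcripts. Other lists fell as well, with 15 of 21 translation factors and 33 of 47 oxidative phosphorylation genes then bright.

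Protein folding and turnover genes were mostly bright, against 18.4% of all genes. Chaperones were bright in 26 of 30 cases and proteasome genes in 33 of 38. All 17 subunits of the proteasome's regulatory particle and 14 of 15 of its core were bright, the exception being the testis form Psma8 (4.95 and 4.91), whose common counterpart Psma7 read 12.24 and 12.26. The interferon-inducible subunits Psmb8 (4.60 and 4.39) and Psmb9 (5.96 and 5.83) and the thymic Psmb11 (mean 4.32) were near background, middle and near background. Among chaperones the heat-inducible Hspa1a (5.11 and 5.39) and Hspa1b (8.29 and 8.80) were middle and Cct6b, a testis form, was near background (mean 4.75). The Hspa1b gap between arrays was the widest of the 30 chaperone genes, at 0.51.

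Energy genes separated by the isoform group they were listed in, against 18.4% bright among all genes. Of 12 ubiquitous glycolytic genes 10 were bright, such as the glucose transporter gene Slc2a1 (13.94 and 13.98), Pgk1 (13.95 and 13.98), Aldoa (mean 13.58) and Ldha (13.28), and Pfkl (9.83) and Hk1 (8.62) were middle. None of 12 tissue-restricted glycolytic isoforms was bright. The testis form Pgk2 (3.59 and 3.62) and the liver and islet transporter gene Slc2a2 (2.87 and 3.31) were near background, and Aldoc (9.75 and 9.43) came closest to the bright class. In oxidative phosphorylation 35 of 36 subunits of complexes I to IV and all 15 ATP synthase subunits were bright, with Cox7c middle (8.97 and 9.03). None of 7 tissue-restricted subunits was bright, and Cyct, the testis cytochrome c, was near background (4.62 and 4.49). Across both pathways no isoform listed as tissue-restricted was thus bright, whereas most of those listed as common were. The groups were drawn up with earlier results known, and isoforms outside them may differ.

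Genes of DNA replication were bright in 35 of 42 cases (83.3%, against 18.4% of all genes) and near background in none. Pcna read 13.42 and 13.55, the helicase subunit gene Mcm7 13.52 and 13.34, and Rrm2, of deoxynucleotide synthesis, 13.06 and 13.11. Middle members included Cdc45 (9.21 and 9.19), Gins3 (mean 8.99) and the thymidylate synthase gene Tyms (6.92), whose 4 probe sets ran from 3.17 to 6.92. In the cell cycle list 26 of 43 were bright (60.5%), including Cdc20 (13.70 and 13.68), Cdk1 (mean 12.26), Top2a (12.92), Ccnb2 (11.80), Ccne1 (11.75) and Ccna2 (11.63 and 11.73). On the median over probe sets 14 of the 43 were bright (32.6%, against 10.2% of all genes). Ccna1, the cyclin A of the germ line, was near background at 3.48 and 3.27. Of 11 CDK inhibitors and Rb family genes 1 was bright, Cdkn1b (10.68 and 10.61), and the INK4 genes Cdkn2a (6.55 and 6.72) and Cdkn2b (5.14 and 5.31) were middle. Of the inhibitors and Rb genes 10 were middle, while 5 of 8 cyclins and 11 of 14 kinases and phosphatases were bright.

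In the p53 pathway 3 of 14 genes were bright (21.4%, near the 18.4% of all genes, and 1 gene on the median over probe sets). They were Trp53inp1 (mean 11.20), Ccng1 (11.19 and 11.06) and Zmat3 (10.09). Mdm2, the p53 ligase, was middle (9.70 and 9.87) and the death receptor gene Fas was near background (3.42 and 3.22).

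None of 17 retinoic acid genes was bright, while 18.4% of all genes were. The near-background share was 17.6%, below the 28.7% of all genes. The receptors Rxrb (9.87 and 9.76) and Rarg (9.26 and 9.12) were middle, whereas Rarb, itself induced by retinoic acid, was near background at 4.02 and 3.81. Cyp26a1, the inducible enzyme that breaks retinoic acid down, was near background too (4.42 and 4.61), and so was Aldh1a1 (mean 3.02). Stra8 (7.58) and the binding protein genes Crabp2 (6.38) and Crabp1 (5.84) were middle. The classes thus differed within the receptor family itself, with 5 of 6 receptors middle and Rarb alone near background.

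No Hox gene was bright. Of the 33 measured, which pattern the body axis and are classic Polycomb targets, 16 were middle and 17 near background (51.5%, against 28.7% of all genes). Near background were 5 of 9 in the A cluster, 4 of 9 in B, 3 of 7 in C and 5 of 8 in D. The highest was Hoxa5 at 7.02 and 6.95, with its other probe set at a mean of 3.63, followed by Hoxc9 (6.85 and 6.77). Among the lowest were Hoxb1 (3.14 and 2.99), Hoxc8 (3.10 and 3.08) and Hoxa2 (3.11 and 3.09). The last 3 read at or below the trp controls.

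Genes of primitive endoderm and its derivatives, the lineage that F9 cells can enter, were mostly middle (22 of 31), with 5 bright and 4 near background. The bright share (16.1%) was near the 18.4% of all genes, and the near-background share was 12.9% against 28.7%. The transcription factor genes Gata6 (5.47 and 5.37), Gata4 (4.83 and 4.78), Sox17 (4.80 and 4.87) and Foxa2 (mean 5.06) lay near the lower threshold, and Sox7 was middle at 9.26 and 9.55 with its other probe set at a mean of 5.02. None of the 6 receptors and adaptors of visceral endoderm was bright, with Lrp2 at a mean of 7.25, Dab2 at 5.29 and Cubn at 5.05. Of the plasma proteins, Apoe was bright (11.20 and 11.06), and Ttr (mean 6.40) and Afp (4.67 on both arrays) were middle and near background. Of 10 basement membrane genes 4 were bright, Sparc (11.24 and 11.19), Nid2 (10.45 and 10.64), Nid1 (10.38 and 10.39) and Lamc1 (10.24 and 10.36). The other 6 were middle, namely Lamb1 (9.53 and 9.46), Hspg2 (mean 9.21), Col4a1 (8.70 and 8.56), Lama1 (8.38 and 8.43), Lama5 (8.44 and 8.19) and Col4a2 (6.62 and 6.54). The shares of the whole list depended on the probe set read. On the median over probe sets, 2 of its genes were bright (6.45%, against 10.2% of all genes). On that measure 12 were near background (38.7%, against 34.2% of all genes).

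Genes of the other germ layers and of extraembryonic tissue were seldom bright, while 18.4% of all genes were. Near-background shares of 33.3% (mesoderm), 38.1% (germ cell) and 39.5% (neural) lay not far above the 28.7% of all genes. On replicate 2 alone the mesoderm share was 23.8%, below the 28.9% of all genes, and 17 of its 21 genes kept their class on both arrays. The trophoblast share was 61.5%. Mesoderm and primitive streak genes were bright in 0 of 21 cases, with Eomes (8.20 and 8.12) and Snai2 (7.14 and 7.29) middle and the organiser gene Gsc near background (3.19 and 3.24). Neural genes were bright in 1 of 43, the microtubule regulator gene Stmn2 (11.97 and 11.91), whose other probe set was also bright at a mean of 10.14. Zic2 (8.53 and 8.52) and Tubb3 (9.29 and 9.17) were middle, and Olig2 (2.65 and 2.69) and Snap25 (2.75 and 3.14) were near background. The glial gene Cnp was middle (9.91 and 9.61), and Mog, of myelin, was near background (3.27 and 3.45). Trophoblast genes were near background in 8 of 13 cases, with Tfap2c (8.42 and 8.37) the highest and Tpbpa (3.54 and 3.49) the lowest. Germ cell genes were bright in 1 of 21, Kit (9.89 and 10.14), which was bright on replicate 2 alone. Dmrt1 (8.88 and 8.95) and Dnd1 (8.73 and 8.86) were middle, and the piRNA pathway gene Piwil4 was near background (2.82 and 2.92).

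**Figure D5:**
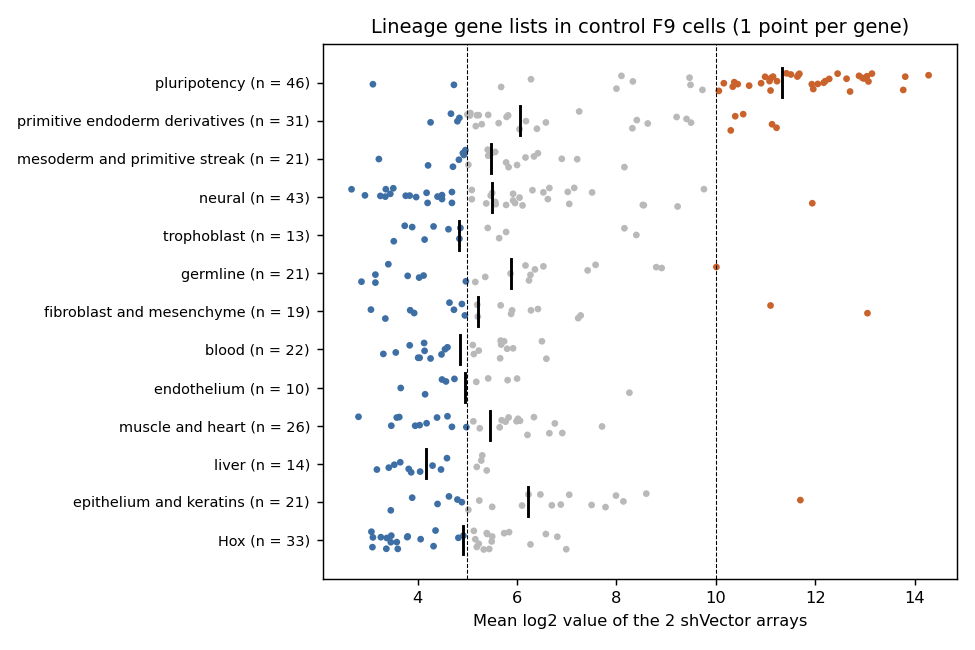
Mean log2 value of the 2 shVector arrays (horizontal axis) for every measured gene of 13 lists, 1 point per gene, coloured by class, with a black bar at each list's median and dashed lines at 5 and 10. Pluripotency genes have a median of 11.33, and the medians of the other 12 lists lie between 4.18 (liver) and 6.23 (epithelium and keratins).

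Markers of other cell types the culture could hold were checked in the same way. In bulk RNA, few cells of a type and little RNA per cell cannot be told apart. Fibroblast and mesenchyme genes were near background in 8 of 19 cases (42.1%, against 28.7% of all genes). Among these 8 were Col1a1 (4.84 and 4.93), Col3a1 (3.33 and 3.36), Postn (3.76 and 3.93) and Fap (3.03 and 3.10). The 2 bright members, Vim (13.00 and 13.10) and Fn1 (11.26 and 10.94), encode vimentin and fibronectin, which many cultured cells make. Blood genes were bright in 0 of 22, while 18.4% of all genes were, and 11 were near background. Ptprc read 3.33 and 3.29 and Csf1r, the highest, 6.67 and 6.52. Liver genes were bright in 0 of 14 and near background in 10 (71.4%), such as Fga (3.25 and 3.10), with Tat at 5.34 and 5.43 the highest. Endothelial genes were bright in 0 of 10, with Esam highest (8.18 and 8.33) and Emcn lowest (3.71 and 3.61). A list of 10 is too short to set 0 clearly apart from the 18.4% of all genes. Muscle and heart genes were bright in 0 of 26 and near background in 11 (42.3%), from Myf5 (2.78 and 2.85) to Myl7 (7.63 and 7.80). The fibroblast and muscle near-background shares thus lay not far above the 28.7% of all genes.

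In epithelium and keratin genes 1 of 21 was bright, Tjp1 of tight junctions (11.60 and 11.80). The near-background share of that list, 28.6%, was near the 28.7% of all genes. The keratins of simple epithelium Krt8 (8.17 and 8.12) and Krt18 (6.11 and 6.09) were middle and Krt7 was near background (3.85 and 3.94). Krt17 of stratified epithelium was middle (8.01 and 7.97), with its other probe set at a mean of 3.87. In the cytoskeleton 14 of 20 genes were bright (70.0%, against 18.4% of all genes), among them Tmsb10 (14.25 and 14.16), Actb (14.10 and 14.14) and Tuba1a (mean 13.72). The smooth muscle actin gene Actg2 was near background (4.01 and 3.78).

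Antigen presentation and interferon genes were near background in 35.3% of cases, against 28.7% of all genes. They were bright in 1 of 34 cases (2.94%, against 18.4% of all genes), H2-K1 of MHC class I (10.53 and 10.25). That probe set, and the one for H2-D1 (9.76 and 9.66), bears the suffix of probe sets that can match related transcripts, and other probe sets of these 2 genes went down to means of 5.24 and 4.04. B2m, the light chain of MHC class I, was middle (8.74 and 8.50), and its transcriptional activator gene Nlrc5 was near background (3.75 and 4.14). Of 22 interferon response genes 9 were near background, such as Oasl2 (3.03 and 2.85), and none was bright, with Ddx58 the highest at 8.92 and 8.99. Lentiviral infection and selection are shared by both arrays, and their part in these levels was not tested.

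Genes listed as imprinted, whose parental copies were not told apart here, had 6 of 24 members bright, 13 middle and 5 near background. The middle and near-background shares (54.2% and 20.8%) lay near those of all genes (52.9% and 28.7%), as did the bright one. Meg3 (12.50 and 12.22) and Rian (12.32 and 12.37), noncoding RNA genes of 1 maternally expressed cluster, were bright. Dlk1, a protein gene of that locus read from the paternal copy, was near background at a mean of 4.78. The 11 Meg3 probe sets ran from 5.45 to 12.36. Ube3a (11.56 and 11.40), Impact (11.07 and 11.23), Plagl1 (10.72 and 10.78) and Ndn (10.31 and 10.23) were the other bright members, and Usp29 was near background (3.98 and 3.82). With the median over a gene's probe sets in place of the highest, no imprinted gene was bright.

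Genes of the sex chromosomes depended on the probe set. The 4 Y-linked genes measured were near background, with Usp9y at 4.31 on both arrays, Kdm5d at 4.00 and 3.72, Uty at 3.48 and 3.17 and Eif2s3y at 2.95 and 3.35. Xist, the RNA that coats an inactive X chromosome, read 8.36 and 8.45 with a probe set of suffix _s_at, but 4.01 and 3.49 with the second of its 3 probe sets and 2.89 and 3.16 with the last. Its antisense partner Tsix read 6.54 and 6.71. The array's strand and cross-matching were not analysed here, so the middle class that its brightest probe set gives Xist in the counts above is uncertain.

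Families were also picked by symbol alone. Olfactory receptor genes were near background in 36 of 39 cases (92.3%), beta-defensins in 18 of 20, vomeronasal receptors in 26 of 31, keratin-associated proteins in 31 of 38 and the prolactin family in 17 of 17. Cytochrome P450 genes were near background in 56 of 73, and 1 was bright, Cyp51, of sterol synthesis. Larger mixed families lay in between. Of the solute carrier genes 38 of 347 were bright, a smaller share than the 18.4% of all genes. Another 98 (28.2%) were near background, which is close to the 28.7% of all genes. Of the Zfp zinc finger genes 39 of 336 were bright and 34 near background. In the zinc finger genes the near-background share was 10.1%, below the 28.7% of all genes.

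The class of a gene often rested on which of its probe sets was read. Of 9010 genes with more than 1 single-gene probe set, 4254 had all of them in 1 class, and the highest and lowest differed by a median of 2.26. Among the 2345 of these genes called bright, 336 had every probe set bright and 573 had one near background. Probe sets listed with no gene were bright in 239 of 9160 cases (2.61%), against 4622 of 34945 (13.2%) for those listed with 1 gene.

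Promoter sequence was then set beside the classes. The window from 250 bases before to 50 after the most upstream RefSeq start (build GRCm38.p6) was taken for each gene, and its CpG ratio is the count of CG dinucleotides over that expected from its C and G content. Of the 3350 bright genes 2775 (82.8%) had a window. Their median ratio was 0.84 (quartiles 0.699 and 0.965), and 2374 (85.5%) reached 0.6, against 9868 of 27025 (36.5%) of all genes in the promoter table. That table also holds genes not measured here, so 36.5% is not the share of the measured genes. A set needed windows for 80% of its genes, and all measured genes together (79.4%) and the middle genes (79.9%) fell short. The check is void for these. It is also void for the near-background, Hox and pluripotency genes, since 76.4%, 57.6% and 63.0% of them had a window.

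Among lists with enough windows, the ratio reached 0.6 in 37 of 44 ribosomal protein genes, 32 of 34 splicing and hnRNP genes and 22 of 25 Polycomb genes. It did so in 1 of 23 muscle and heart genes, 0 of 12 liver genes and 0 of 36 keratin-associated protein genes. Ratio and class did not always go together, since 8 of 14 retinoic acid genes and 5 of 5 sex chromosome genes, lists with no bright member, reached it. In glycolysis 11 of 23 genes (47.8%) reached it and 41.7% of the measured members were bright. Motifs were searched as exact letters on both strands and may overlap each other. TATAAA, the letters of a TATA box, occurred in 183 windows of bright genes (6.59%), against 14.2% of all genes in the table, in 10 of 23 muscle and heart genes and in 29 of 36 keratin-associated protein genes. GGGCGG, letters bound by Sp1, occurred in 70.4% of bright genes and 35.9% of all genes in the table. CCGGAAG, a core of ETS family sites, occurred in 24.6% of bright genes, 47.7% of ribosomal protein genes and 9.14% of the table. CCAAT occurred in 1138 of 2775 bright genes (41.0%) and 10275 of 27025 of all. A match describes letters and is not a measured binding site.

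Windows of 5 genes are printed to show that CpG content and class need not go together. Each line gives the 250 bases before the start, 5′ to 3′ on the gene's own strand, in lower case with CG dinucleotides in capitals. Sox2 lies at chr3:34649745-34649994 (plus strand) and has 27 of them, and Rplp2 at chr7:141447401-141447650 (plus) has 24, and both were bright. Lin28a, at chr4:134018817-134019066 (minus), has 7 and was bright as well. Hoxa13, at chr6:52260881-52261130 (minus), has 35 and was near background at a mean of 4.06. The fibrinogen gene Fga, at chr3:83025903-83026152 (plus), has 2 and was near background.
Sox2: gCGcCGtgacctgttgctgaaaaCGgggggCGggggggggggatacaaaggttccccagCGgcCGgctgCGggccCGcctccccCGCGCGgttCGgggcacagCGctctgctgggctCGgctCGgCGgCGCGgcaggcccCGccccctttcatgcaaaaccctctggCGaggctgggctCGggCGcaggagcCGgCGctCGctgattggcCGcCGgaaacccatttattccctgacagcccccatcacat
Rplp2: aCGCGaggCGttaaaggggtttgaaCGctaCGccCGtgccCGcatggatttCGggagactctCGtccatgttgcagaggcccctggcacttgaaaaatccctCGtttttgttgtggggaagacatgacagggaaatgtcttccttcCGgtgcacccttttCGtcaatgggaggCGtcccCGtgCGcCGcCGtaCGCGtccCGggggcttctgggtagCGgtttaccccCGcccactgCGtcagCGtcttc
Lin28a: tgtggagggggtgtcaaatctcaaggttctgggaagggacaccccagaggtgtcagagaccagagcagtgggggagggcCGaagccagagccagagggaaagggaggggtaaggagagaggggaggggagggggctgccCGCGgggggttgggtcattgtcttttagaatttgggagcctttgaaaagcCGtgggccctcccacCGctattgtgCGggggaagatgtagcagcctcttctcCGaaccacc
Hoxa13: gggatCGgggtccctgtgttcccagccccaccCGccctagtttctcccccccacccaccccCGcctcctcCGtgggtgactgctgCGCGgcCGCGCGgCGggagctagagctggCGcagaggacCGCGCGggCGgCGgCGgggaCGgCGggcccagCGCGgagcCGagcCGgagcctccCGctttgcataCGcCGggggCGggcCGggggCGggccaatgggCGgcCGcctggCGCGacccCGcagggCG
Fga: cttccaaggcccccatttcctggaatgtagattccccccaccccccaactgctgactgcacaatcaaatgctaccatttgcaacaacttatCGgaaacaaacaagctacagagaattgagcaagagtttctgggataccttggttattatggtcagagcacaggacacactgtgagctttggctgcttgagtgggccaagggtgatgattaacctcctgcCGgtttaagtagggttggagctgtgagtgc
Dense CG capitals thus run through Sox2 and Rplp2, which were bright, and through Hoxa13, which was not, while Lin28a was bright with few.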

How the data were processed

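Total RNA of F9 cells was labelled with biotin and hybridised to Affymetrix mouse genome arrays, per the labels' protocols. The deposited values were taken as log2 expression, 1 per probe set and array. The scale is not stated and was read from the values, whose medians on the 2 shVector arrays were 5.76 and 5.75. The software, background correction and normalization the authors used, and any detection call, are not given in the labels or headers. The 2 shPhf19 columns were not used.

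The 64 control probe sets were left out. The platform annotation listed 34945 probe sets with 1 gene symbol, 932 with several and 9160 with none, and gene numbers of 34741 were found in RefSeq (GRCm38.p6), which changed 0 symbols. A gene was represented by the probe set with the highest mean. Means, SDs and classes were computed with Python 3.11.15, pandas 2.3.3 and numpy 2.4.6 and checked on simulated data. The simulated levels were kept away from both limits, so that check covers the code and not how firm a class is. With 2 arrays, their number limits the precision.

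The members, the class limits of 10 and 5 and the gene lists were chosen with earlier results of these data known. Genes named were the 5 markers, the 20 with the highest mean, up to 4 of the highest and 2 of the lowest per role in each list with those in its minority class, the 8 with the largest difference between arrays in each direction, and those next to each limit. Further list members were named after their values were seen.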

Additional observations from a re-analysis of the deposited data

How the results depend on the processing

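Neither leaving out an array nor quantile normalization of the pair moved a count of classes over all probe sets or genes by more than 1.5 times. Without replicate 1 or 2 in turn, bright probe sets numbered 5110 to 5219, bright genes 3338 to 3385 and near-background genes 5154 to 5254. Of the 66 counts within lists, 1 moved that far without replicate 2, where Kit left the bright class and 0 germ cell genes were bright. The limits matter more. At 9, 8321 probe sets and 5350 genes were bright, and at 11, 2818 and 1747. With the lower limit at 4, 9729 probe sets and 2627 genes were near background. At 6 it took in 24028 probe sets and moved 18 of 33 list counts, such as Hox (17 to 29), primitive endoderm (4 to 15), retinoic acid (3 to 9) and mesoderm (7 to 14). Without _s_at, _x_at and _a_at probe sets, 2814 probe sets were bright. With the median over a gene's probe sets, 1848 genes (10.2%) were bright. With the lowest, 1341 (7.37%) were bright and 8538 (46.9%) near background. The median moved 18 of the 66 list counts, the lowest 40 and leaving out suffixed probe sets 17. On the median, bright genes fell from 36 to 26 in pluripotency, 14 to 4 in chromatin remodelling, 14 to 7 in Polycomb, 26 to 14 in cell cycle, 10 to 3 in self-renewal receptors and 6 to 0 in imprinted genes, and Hox stayed at 0.

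The SD of the array difference was 0.193 for means of 5 or more and 0.190 after quantile normalization. The median CpG ratio of bright genes was 0.834 with the median over probe sets, 0.819 for genes with 1 probe set, 0.841 without either array and 0.832 averaged over all windows of a gene, the last chosen after seeing the data. No paired analysis was possible because no groups were compared and no result comes from a test. No alternative replaces the missing detection calls, so near background is a level and not a call of absence.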
